A study of Mus musculus with 10 samples.

Results

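The CDK inhibitors and pocket proteins are the 10 genes Cdkn1a, Cdkn1b, Cdkn1c, Cdkn2a, Cdkn2b, Cdkn2c, Cdkn2d, Rb1, Rbl1 and Rbl2. They were found through every probe set whose platform annotation gives 1 gene symbol and whose symbol is one of these, which took 17 of 45037 probe sets, and 10 of 18193 genes, on an Affymetrix mouse expression array. Rbl1 had 4 probe sets, Cdkn1a, Cdkn1b, Rb1 and Rbl2 had 2 each and the other 5 genes had 1. The arrays compared murine Mll-AF9 leukaemia cells (line 4166) that carried a lentivirus with an shRNA against Meis1 (5 samples) with cells that carried the empty lentiviral vector (5 samples), both selected with puromycin and profiled 48 h after transduction. The culture medium of all 10 samples was IMDM, with 15% fetal bovine serum and interleukin 3 at 2 ng/ml. The labels pair the samples by number, and all come from 1 leukaemia line with 1 shRNA construct named. The control vector held no hairpin, so the groups also differ in the presence of an shRNA. Nothing in the labels says that the samples of a group were separate cultures, so a p-value here reflects the spread among these samples alone, and that spread may be technical.

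Cyclin-dependent kinases (CDKs) drive a cell from G1 into S phase, and inhibitor proteins hold them back. The Cip/Kip inhibitors p21 (Cdkn1a), p27 (Cdkn1b) and p57 (Cdkn1c) bind cyclin-CDK complexes that include cyclin E with Cdk2, while the INK4 inhibitors p16 (Cdkn2a), p15 (Cdkn2b), p18 (Cdkn2c) and p19 (Cdkn2d) bind Cdk4 and Cdk6. The pocket proteins Rb (Rb1), p107 (Rbl1) and p130 (Rbl2) hold E2F transcription factors in check until CDKs phosphorylate them. In blood stem cells and leukaemias these brakes help set how often cells divide. Meis1 is a TALE homeodomain factor that acts with Hoxa9.

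The deposited values are intensities on a linear scale. The submitters' notes name RMA, a method that subtracts background, normalizes the arrays to each other and gives 1 value per probe set. The variant of RMA was not given and could not be checked from the values. The array medians were 6.25 to 6.71. Trpn control probe sets, whose bacterial transcript was not spiked in, read 3.28 to 4.92 and serve as a mark of background. Log2 changes are shRNA minus control from limma with the pair as a block, and a change passed at a Benjamini-Hochberg adjusted p under 0.05 over all 45037 probe sets. The brightest Meis1 probe set, 1450992_a_at, read 290.3 to 413.1 in the controls and 126.7 to 220.7 with the shRNA. That is a log2 change of -1.09 (SE 0.09, adjusted p = 0.000767 by limma), lower in 5 of 5 pairs. Mpo (control mean 10913), Ctsg (8052) and Prtn3 (5837), granule proteases and peroxidase of myeloid progenitors, were bright, while all 9 measured lymphoid markers and all 7 erythroid and megakaryocytic markers had a mean log2 level below 4. Kit, the receptor of stem cell factor, was the 1 of 12 myeloid markers that fell, named after its value was seen (-0.78, adjusted p = 0.00237). That call was lost without the block (adjusted p = 0.218) and with an estimated correlation of the pairs (adjusted p = 0.153). Of the 12 markers, 7 had an unadjusted p under 0.05 by limma, as did 6663 of all 45037 probe sets. After median centring 3 fell and none rose, and with trend and robust eBayes 5 fell and 1 rose. Over all 45037 probe sets median centring called 1073 lower and 189 higher, and trend and robust eBayes 1699 and 610. Csf1r and Fcgr3, of mature myeloid cells, lay below a mean log2 of 4. The summed intensity of the 12 was 24036 to 40883 in the controls and 21256 to 35701 with the shRNA, lower in 5 of 5 pairs. It was 21256 to 24062 on the arrays of pairs 1 and 2 and 27831 to 40883 on those of pairs 3 to 5.

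Of the 17 member probe sets, 2 were higher with the shRNA, 2 were lower and 13 did not pass. Both that rose were of Cdkn1a and both that fell were of Rbl1, so 2 of the 10 genes changed. The RNA came from bulk cultures, in which fewer cells of a kind and less RNA per cell cannot be told apart. Over all probe sets 1116 passed, 2.48% of those tested (0.522% higher and 1.96% lower). After quantile normalization 65.0% of the calls were lower, against 78.9% in the values as deposited. The median log2 change of the member probe sets was -0.07, against 0.01 over all probe sets.

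**Figure D1:**
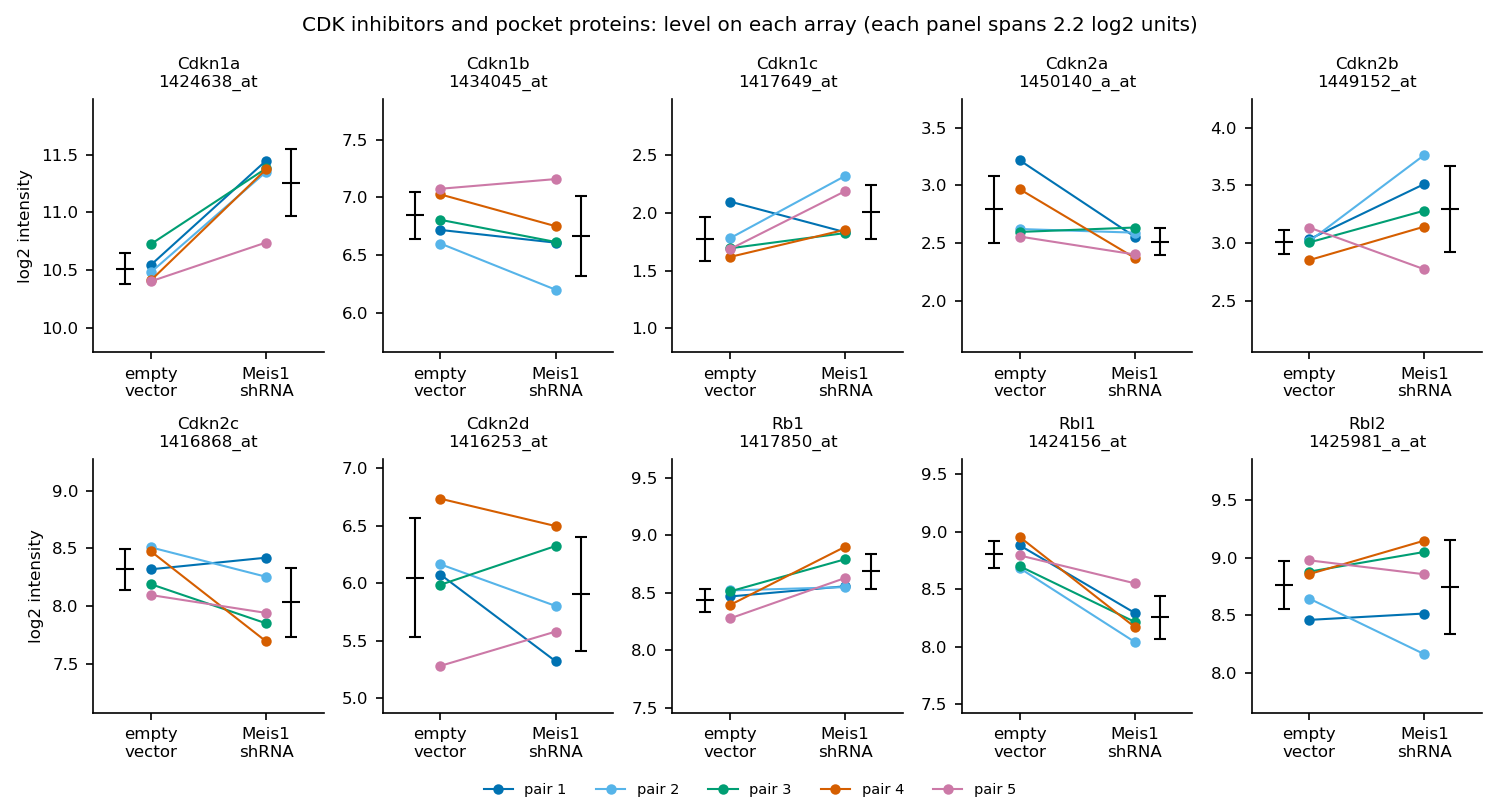
The log2 intensity of the brightest probe set of each member on each array, with the empty vector on the left and the Meis1 shRNA on the right of each panel, where lines join the 5 pairs and black bars give mean ± SD (n = 5). Cdkn1a and Rb1 went up and Rbl1 went down in all 5 pairs, though Rb1 did not pass, while the lines of the other members run both ways.

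Cdkn1a encodes p21, the inhibitor through which p53 halts the cycle in G1, and it was the Cip/Kip member that changed. Its probe set 1424638_at (Entrez gene 12575, chromosome 17) read 1492, 1428, 1691, 1360 and 1352 in controls 1 to 5 and 2795, 2612, 2667, 2653 and 1708 in their shRNA partners. Every shRNA array was above every control array, though shRNA 5 was only just above control 3, the highest control. The group means were 1465 ± 139 and 2487 ± 441 (SD, n = 5). On the log2 scale this was 0.75 (SE 0.11, adjusted p = 0.0111 by limma), 1.68-fold with a 95% interval of 1.41 to 2.00. Groups that did not overlap were found for 4 of 17 member probe sets (this one, 2 of Rbl1 and 1 of Rb1) and for 3.95% of all probe sets.

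The second Cdkn1a probe set, 1421679_a_at, gave nearly the same change. It read 84.07, 74.74, 99.93, 74.20 and 66.57 in controls 1 to 5 and 151.8, 140.2, 150.9, 154.5 and 87.67 with the shRNA. Here shRNA 5 lay below control 3, so the groups overlapped by that array. It rose by 0.76 on the log2 scale (limma, SE 0.11, adjusted p = 0.0108), higher in 5 of 5 pairs. Without pair 1, 2 or 4 its adjusted p was 0.0517, 0.0559 and 0.0547. Both probe sets read the same RNA on the same arrays and are not separate samples.

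The Cdkn1a gene has 2 annotated starts on the plus strand of chromosome 17, 2790 bases apart. The window around the upstream start is shown because it holds a match to the p53 element and p53 target genes are described here beside Cdkn1a. It is chr17:29090729-29091028 of GRCm38.p6 from RefSeq, 250 bases before the start and 50 after, 5′ to 3′ on the plus strand, with the element in capitals.
Cdkn1a upstream start: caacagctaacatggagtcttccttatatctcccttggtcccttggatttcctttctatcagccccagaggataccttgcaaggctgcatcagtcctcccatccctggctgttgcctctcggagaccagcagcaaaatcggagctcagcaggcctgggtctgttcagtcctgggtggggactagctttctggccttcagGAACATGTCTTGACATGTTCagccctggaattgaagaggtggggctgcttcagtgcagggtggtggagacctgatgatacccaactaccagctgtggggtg
The capitals mark a match to the p53 full site, a pair of half-sites of the p53 consensus with no spacer and at most 1 mismatch, searched on both strands. It begins at base 200 of the window, 51 bases before the start. Of 32851 such windows over all genes, 18 held such a match, or 0.0548%. Of the 11 windows that RefSeq gave for 8 of the members, this was the 1 that did. A match describes the letters and was not tested for binding in these cells.

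Cdkn1b encodes p27, the inhibitor that the SCF ligase with Skp2 marks for breakdown as cells enter S phase. Its brighter probe set 1434045_at read 105.3, 97.03, 111.9, 130.4 and 134.9 in the controls and 97.53, 73.48, 97.95, 107.7 and 143.0 with the shRNA. It was lower in 4 of 5 pairs and higher in pair 5, and the groups overlapped. The log2 change was -0.18 (95% interval -0.40 to 0.04, adjusted p = 0.451 by limma). The other, 1419497_at, was dim, at 4.62 to 7.91 in the controls and 5.54 to 9.50 with the shRNA. Its change was -0.07 (95% interval -0.42 to 0.27).

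Cdkn1c encodes p57, the Cip/Kip inhibitor linked to quiescence of blood stem cells. Its single probe set read 3.07 to 4.29 in the controls and 3.55 to 5.00 with the shRNA, about the level of the unspiked controls, and 7.68% of all probe sets were dimmer. The change was 0.23 (95% interval -0.06 to 0.52, adjusted p = 0.463 by limma).

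The 4 INK4 genes did not pass, and 2 of them, Cdkn2a and Cdkn2b, were dim. Cdkn2a codes for p16 and, from another first exon and reading frame, for Arf, which restrains Mdm2, and the files do not say which of these transcripts its probe set reads. It gave 9.30, 6.15, 6.04, 7.82 and 5.88 in the controls and 5.87, 6.02, 6.21, 5.17 and 5.28 with the shRNA, around the median of all probe sets. Controls 1 and 4 were highest and the other arrays overlapped. The change was -0.28 (95% interval -0.57 to 0.00, adjusted p = 0.347 by limma).

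Cdkn2b encodes p15, which transforming growth factor beta induces. It read 7.22 to 8.78 in the controls and 6.83 to 13.59 with the shRNA, higher in 4 of 5 pairs and lower in pair 5. The change was 0.29 (95% interval -0.05 to 0.62, adjusted p = 0.423 by limma). In pairs 1 and 2 it averaged 0.62 and in pairs 3 to 5 it averaged 0.07, so most of it came from the first 2 pairs.

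Cdkn2c encodes p18, the INK4 inhibitor that limits self-renewal of blood stem cells, and was well above background. The controls read 319.3, 364.4, 292.0, 355.9 and 273.5, and the shRNA arrays read 342.4, 305.3, 230.7, 207.0 and 245.6. It was lower in 4 of 5 pairs and a little higher in pair 1, with overlapping groups. The change was -0.29 (95% interval -0.57 to -0.00, adjusted p = 0.333 by limma).

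Cdkn2d, which encodes the INK4 protein p19, varied more within each group than between the groups. The controls read 67.41, 71.69, 63.39, 106.4 and 38.91 and the shRNA arrays 40.01, 55.81, 80.05, 90.25 and 47.83. Pair 4 was highest in both groups. The change was -0.14 (95% interval -0.51 to 0.22, adjusted p = 0.758 by limma), with 3 pairs lower and 2 higher.

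**Figure D2:**
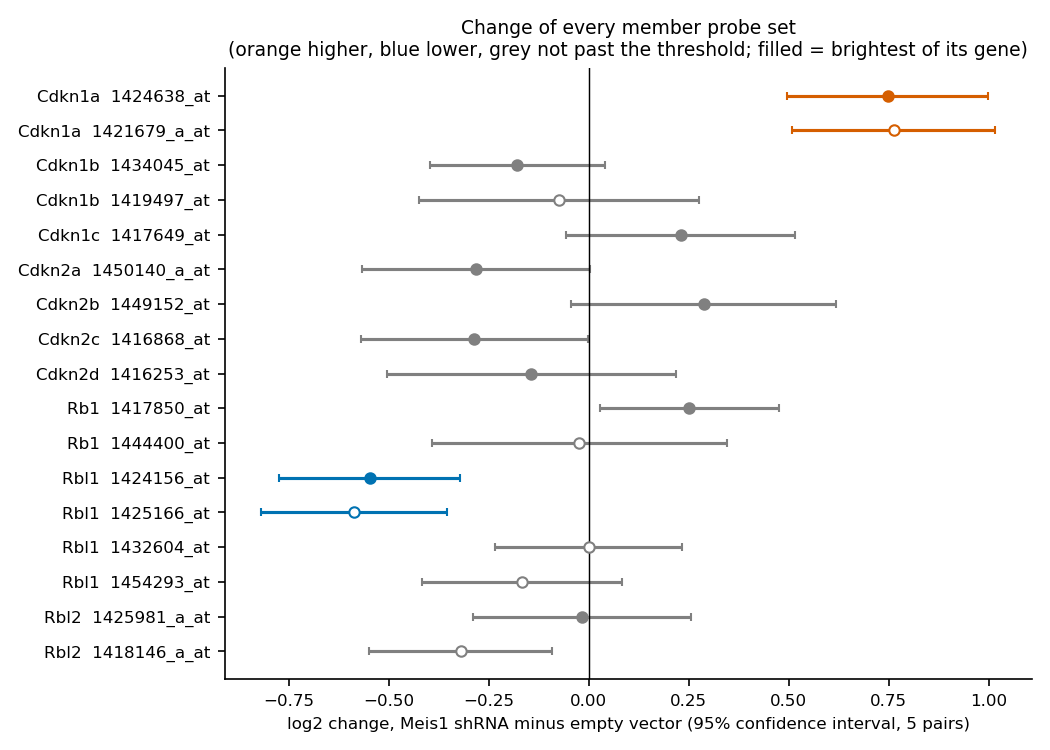
The log2 change of each of the 17 member probe sets, shRNA minus control, with its 95% confidence interval over 5 pairs. The Cdkn1a intervals lie above 0 and those of 2 Rbl1 probe sets below 0, while the changes of the 13 probe sets that did not pass lie between -0.32 and 0.29. Among those 13, the intervals of Rb1 1417850_at, Rbl2 1418146_a_at and Cdkn2c also leave out 0.

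Rbl1 encodes p107, a pocket protein that pairs with E2f4 in cycling cells and is itself a target of E2F. Its brightest probe set 1424156_at (Entrez gene 19650, chromosome 2) read 471.7, 411.2, 416.0, 496.0 and 443.9 in controls 1 to 5 and 313.9, 263.6, 297.4, 288.4 and 375.2 with the shRNA. Every shRNA array was below every control array, with shRNA 5 the nearest. The means were 448 ± 36.3 and 308 ± 41.9 (SD, n = 5). This is a log2 change of -0.55 (limma, SE 0.10, adjusted p = 0.0272), a level 1.46-fold lower, and it was lower in 5 of 5 pairs.

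The probe set 1425166_at for Rbl1 gave 24.62, 17.84, 20.75, 19.50 and 16.02 in the controls and 14.09, 9.98, 15.22, 14.51 and 12.03 with the shRNA. The groups did not overlap here either. This probe set was dim, at a mean log2 level of 4.29 in the controls and 3.70 with the shRNA. The filter of a mean log2 above 4 leaves it out. The change was -0.59 (SE 0.10, adjusted p = 0.0226 by limma). It did not pass without the pair as a block (adjusted p = 0.0568), after quantile normalization (-0.51, 0.0522) or without pair 1, 2, 3 or 4 (0.0615 to 0.0967). The other Rbl1 probe sets, 1432604_at and 1454293_at, read 4.61 to 6.07 and 2.81 to 3.98 in the controls, near the unspiked controls. Their changes were -0.00 and -0.17 and did not pass. With all 4 averaged, the Rbl1 change was -0.33 and passed at an adjusted p of 0.0460 in the gene-level fit of limma.

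The window at the Rbl1 start is shown because it holds matches to an E2F motif, and other E2F targets are described here beside Rbl1. It is chr2:157204485-157204784 of GRCm38.p6 from RefSeq, printed 5′ to 3′ on the minus strand, on which the gene lies.
Rbl1 start: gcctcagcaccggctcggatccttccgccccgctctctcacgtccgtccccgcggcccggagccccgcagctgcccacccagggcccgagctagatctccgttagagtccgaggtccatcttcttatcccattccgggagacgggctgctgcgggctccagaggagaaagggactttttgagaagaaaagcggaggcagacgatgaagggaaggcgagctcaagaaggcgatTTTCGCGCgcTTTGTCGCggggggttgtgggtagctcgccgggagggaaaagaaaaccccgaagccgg
The capitals mark both matches to TTTNNCGC, searched on both strands, at 18 and 8 bases before the start. The motif was present in 5.17% of the 32851 windows, and in 3 of the 11 member windows, those being Rbl1 and both Cdkn2a starts. The cell cycle homology motif TTTGAA, also searched on both strands, was in 17.9% of all windows and in those of Cdkn2b and Rbl2.

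Rb1, which encodes the retinoblastoma protein, did not pass. The probe set 1417850_at read 354.3, 367.5, 365.3, 336.6 and 310.5 in the controls and 376.8, 374.8, 443.4, 478.0 and 396.1 with the shRNA. It was higher in 5 of 5 pairs and the groups did not overlap, yet the differences in pairs 1 and 2 were only 0.09 and 0.03 on the log2 scale. The change was 0.25 (95% interval 0.03 to 0.47, adjusted p = 0.276 by limma). The second Rb1 probe set, 1444400_at, was near background at 4.33 to 7.58 in the controls and changed by -0.02.

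The pair of probe sets for Rbl2, which encodes p130, the pocket protein of resting cells, did not give the same value. The brighter, 1425981_a_at, read 352.5, 400.8, 471.2, 464.3 and 504.5 in the controls and 366.3, 286.7, 530.6, 568.1 and 463.8 with the shRNA, a change of -0.02 (95% interval -0.29 to 0.26) whose sign turned to 0.04 after quantile normalization. It was lower in pairs 1 and 2 than in pairs 3 to 5 in both groups, by 0.35 on the log2 scale in the controls and by 0.68 with the shRNA. The other, 1418146_a_at, changed by -0.32 (95% interval -0.55 to -0.09, adjusted p = 0.171 by limma), lower in 5 of 5 pairs. Cdkn1b 1434045_at showed the same kind of difference between pairs, lower in pairs 1 and 2 by 0.31 in the controls and 0.44 with the shRNA. Neither was tested across these pairs, since the labels give no such grouping.

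The size of the Cdkn1a and Rbl1 changes differed between pairs. The Cdkn1a probe set 1424638_at rose by 0.91, 0.87, 0.66, 0.96 and 0.34 in pairs 1 to 5, and Rbl1 1424156_at gave -0.59, -0.64, -0.48, -0.78 and -0.24. Both of these probe sets changed most in pair 4 and least in pair 5, as did Cdkn1a 1421679_a_at (1.06 and 0.40). The other called Rbl1 probe set, 1425166_at, gave -0.81, -0.84, -0.45, -0.43 and -0.41, so it changed most in pair 2. Meis1 was reduced as far in pair 5 (-1.05) as in pair 1 (-1.04). The 3 prime to 5 prime ratio of the array's Gapdh and actin controls, a usual gauge of how intact the RNA was, was higher with the shRNA in 5 of 5 pairs, by 0.11, 0.06, 0.09, 0.19 and 0.01 on the log2 scale, also most in pair 4 and least in pair 5. Its control mean was 0.28 ± 0.06 and its shRNA mean 0.37 ± 0.02 (SD, n = 5; exact two-sided sign-flip permutation p = 0.0625, the smallest that 5 pairs allow).

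When that ratio entered the fit beside the pairs, Cdkn1a 1424638_at changed by 0.47 (adjusted p = 0.861 by limma) and Rbl1 1424156_at by -0.31 (adjusted p = 0.954), and neither passed. The Rbl1 probe set 1425166_at was then at -0.62 (adjusted p = 0.768). That fit called 0 of all 45037 probe sets, with 2504 at an unadjusted p under 0.05 against 6663 without the ratio. Meis1 was at -0.98 (adjusted p = 0.246). Since the ratio and the shRNA go together here, their parts cannot be told apart. Without pair 1, 2 or 4 the Cdkn1a probe set had an adjusted p of 0.0540, 0.0565 and 0.0623, and Rbl1 1424156_at without pair 1, 2, 3 or 4 had 0.106, 0.101, 0.0847 and 0.122 by limma.

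**Figure D3:**
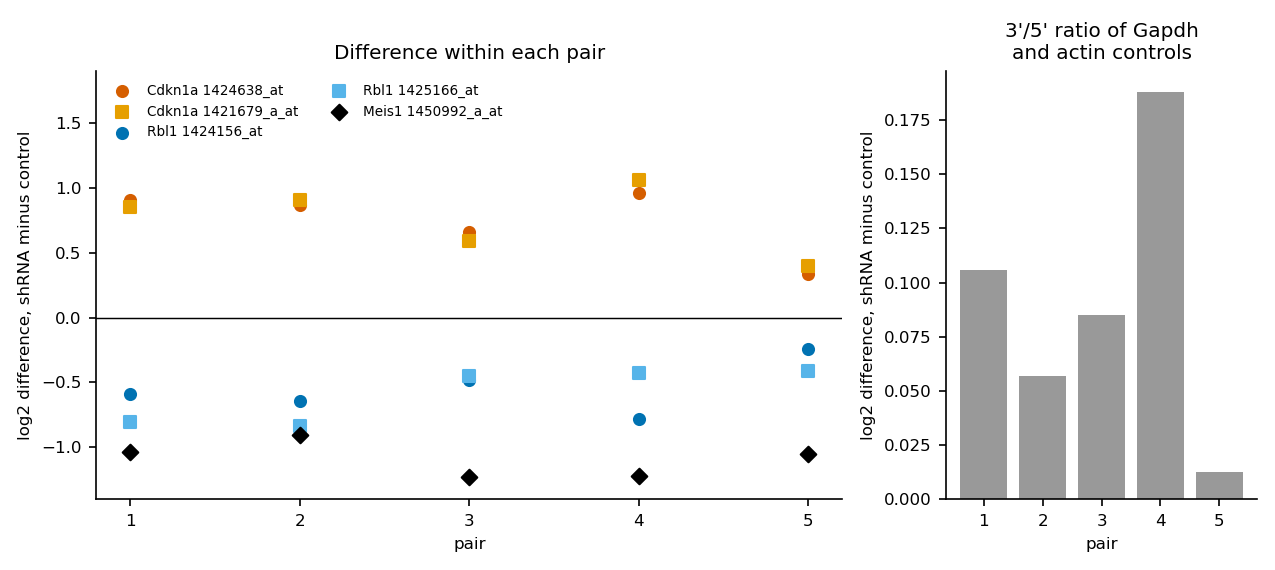
Left, the log2 difference between shRNA and control in each of the 5 pairs for the 4 called member probe sets and for Meis1, and right, the same difference for the 3 prime to 5 prime ratio. Pair 5 has the smallest difference in Cdkn1a 1424638_at (0.34), in Rbl1 1424156_at (-0.24) and in the ratio (0.01), but not in Meis1 (-1.05).

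Genes were also ranked by how closely their levels followed a called member within pairs, over 10 arrays that hold only 5 independent pair differences, among 6714 genes with a mean log2 level above 5. These correlations are a description and carry no test. The called members changed the same way in 5 of 5 pairs. Genes ranked closest to them therefore share their direction by construction, whether or not they pass. Closest to Cdkn1a 1424638_at were Scarb2, a lysosomal membrane receptor (r = 0.997), Sqstm1, an autophagy adaptor (r = 0.995), and Ier5, an immediate early gene (r = 0.995). Their log2 changes were 0.38, 0.46 and 0.46, of which Sqstm1 and Ier5 passed. For 1421679_a_at they were Slc48a1, Gstp1 and Itgal, at r of 0.996 to 0.997, with log2 changes of 0.24, 0.17 and 0.62, of which only Itgal passed. Closest to Rbl1 1424156_at were Gabpa, an ETS factor (r = 0.998, log2 change -0.60), Racgap1, needed for cytokinesis (r = 0.998, -0.86), and Lsm2, an RNA-binding protein of the spliceosome (r = 0.998, -0.52). All 3 passed. For Rbl1 1425166_at they were Rps6ka3, Tsc22d2 and Zfp120, at r of 0.991 to 0.992, and all 3 fell.

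The partners of these proteins are described by the brightest probe set of each gene, of which 3.16% passed over 18193 genes (0.813% higher and 2.34% lower). In a limma fit of these probe sets alone, 3273 of 18193 had an unadjusted p under 0.05. Of 15 cyclins, CDKs and their activators, 1 fell and none rose, with 6 at an unadjusted p under 0.05. Among those with a mean log2 above 4, 4 of 13 fell, and with trend and robust eBayes 5 of 15 fell and 1 rose. Of all 13581 probe sets with a mean log2 above 4, 1470 fell and 486 rose. With trend and robust eBayes 1699 of all 45037 fell and 610 rose. The 1 that fell in the fit used here was Cdk2, the kinase that p21 and p27 inhibit. Cdk2 was at 347 in the controls and 110 with the shRNA (-1.67, SE 0.12, adjusted p = 0.000480 by limma). In the fit that includes the ratio its change was -1.73 (adjusted p = 0.164). The targets of the INK4 proteins did not pass. Cdk4 changed by -0.08 and Cdk6 by -0.38 (adjusted p = 0.0561, or 0.0394 after median centring). Among the D-type cyclins that bind them, Ccnd2 changed by 0.39 (adjusted p = 0.125), Ccnd3 by -0.07 and Ccnd1, near background, by 0.08.

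Of the 10 E2F and DP factors, E2f4 was the 1 called lower and none rose, with 5 at an unadjusted p under 0.05 and 4 above 0. E2f8 (-0.81, adjusted p = 0.0525 by limma) and E2f1 (-0.68, adjusted p = 0.0612) were lower in 5 of 5 pairs but did not pass. Among probe sets with a mean log2 above 4, 3 of 8 factors were called lower, as were 1470 of all 13581. E2f4, the usual partner of p107 and p130, was dim, at a mean of 16.1 in the controls and 11.6 with the shRNA (-0.45, adjusted p = 0.0473 by limma). It did not pass after quantile normalization (adjusted p = 0.0655), in the unpaired fit (0.244) or when any 1 of the 5 pairs was left out (0.0695 to 0.195). Of 7 genes of the MuvB core and its partners B-Myb and FoxM1, with which p107 and p130 form the DREAM repressor, Lin9 (-0.94, adjusted p = 0.0126) and Lin54 (-0.52, adjusted p = 0.0445) fell. Lin54 did not pass after quantile normalization (adjusted p = 0.0805) or without pair 1, 2, 3 or 4 (0.0761 to 0.176), and Lin9 not without pair 4 (0.0708). Lin54 binds DNA and Lin9 links the core to B-Myb. With trend and robust eBayes 4 of the 7 were called lower, against 1699 of all 45037 probe sets.

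Among 19 genes known as E2F targets, most of them for DNA replication, 5 fell and none rose, with 18 of 19 below 0 and a median of -0.41 against 0.00 over the genes' brightest probe sets. The exception was Ezh2, a Polycomb methyltransferase, at 0.02. Gins2, a subunit of the replicative helicase, led them (-1.38, adjusted p = 0.000767 by limma), then Tk1, thymidine kinase (-1.18, adjusted p = 0.00724), and Gins1, a helicase partner of Gins2 (-0.96, adjusted p = 0.0272). Cdc6 and Mcm5, which license replication origins, also fell (-0.75 and -0.48). The count was 3 without pair 1 or 3, where Gins1 (adjusted p = 0.0889 and 0.0921) and Mcm5 (0.110 and 0.0906) did not pass, and 4 without pair 2 or 4, where Mcm5 did not (0.104 and 0.127). In the unpaired fit Gins1 (0.0534) and Mcm5 (0.0663) did not pass, and without limma's moderation none of the 19 did (17 at an unadjusted p under 0.05). In the fit that includes the ratio, 17 of 19 were below 0 and the median was -0.24. None of the 19 passed there (4 at an unadjusted p under 0.05). Nearly all of these targets were bright. Above a mean log2 of 4, the median change without the ratio was -0.42 over 18 targets and -0.06 over all 13581 probe sets.

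Of 13 genes of the p53 arm other than Cdkn1a, 6 rose and none fell, with a median log2 change of 0.47. Btg2, an antiproliferative target of p53, rose by 1.15 (adjusted p = 0.00109 by limma), Phlda3, an Akt inhibitor, by 1.04 (adjusted p = 0.0180), and Mdm2, which degrades p53, by 0.61 (adjusted p = 0.0398). Leaving out pair 1, 2, 3 or 4 took Phlda3 (adjusted p = 0.0594 to 0.0949) and Mdm2 (0.111 to 0.170) past 0.05. Without 1 of those pairs the count was 1 or 2. In the fit that includes the ratio it was 0 (3 at an unadjusted p under 0.05), with 7 of 13 above 0 and a median of 0.26. Sesn1, a sestrin induced by p53 and named after its value was seen, ran the other way at -0.48, lower in 5 of 5 pairs (adjusted p = 0.100). It passed as lower among probe sets with a mean log2 above 4 (0.0489) and with trend and robust eBayes (0.0150).

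Genes that act on the inhibitors themselves were called at about the share of all genes, 3.16%. Of 14 Polycomb and other genes that repress the INK4 loci, none passed (0 at an unadjusted p under 0.05 too), with Bmi1 at 0.08 (adjusted p = 0.753). Of 12 genes that break down p27 and p21, Dtl fell (log2 change -0.61, limma, adjusted p = 0.0195). Dtl is the adaptor through which the Cul4 ligase targets p21 in S phase. Its call was lost when pair 1, 2, 3 or 4 was left out (adjusted p = 0.0505 to 0.0816). Skp2 changed by 0.17 (adjusted p = 0.466 by limma). Among the 11 breakdown genes with a mean log2 above 4, 1 rose and 1 fell, and with trend and robust eBayes 2 of 12 fell. Of 13 transcription factors known to act on inhibitor genes none passed (5 at an unadjusted p under 0.05). After quantile normalization, with array weights, with trend and robust eBayes, and above a mean log2 of 4, 1 was called higher each time. Myc, which represses Cdkn1a and Cdkn2b, changed by -0.04 (adjusted p = 0.902 by limma).

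**Figure D4:**
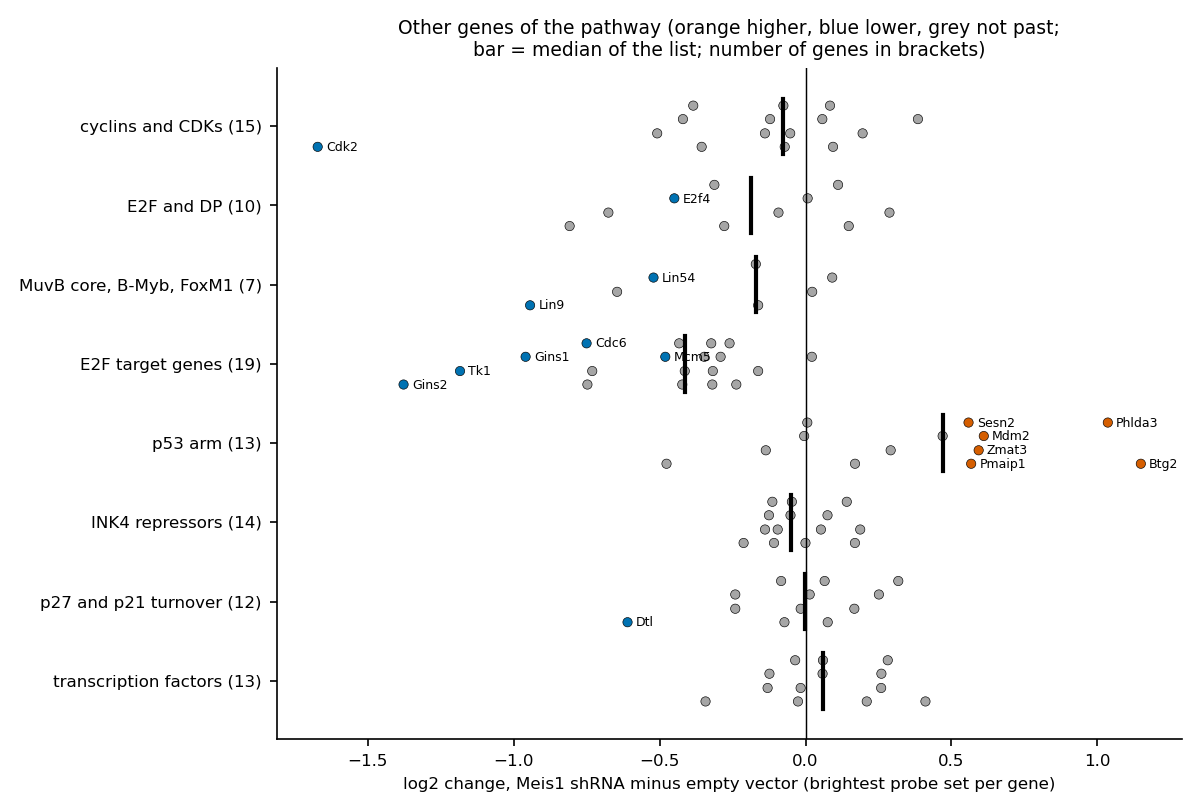
The log2 change, shRNA minus control, of the brightest probe set of each gene in 8 lists of pathway genes, with the list's median as a bar. The called E2F target genes lie at -0.48 or below and the called p53 arm genes at 0.56 or above, and no INK4 repressor is called.

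The summed intensity of 9 lymphoid markers was 43.0 to 47.5 in the controls and 43.3 to 52.1 with the shRNA. That of 7 erythroid and megakaryocytic markers was 42.7 to 63.0 and 48.5 to 57.1. The 7 mast cell, basophil and eosinophil markers summed to 339 to 698 and 271 to 386, mostly from Mcpt8, lower in 5 of 5 pairs, and none passed (3 at an unadjusted p under 0.05). Of 7 stromal and endothelial markers, Pecam1, which leukocytes also carry, fell (-0.71, adjusted p = 0.0454), though not in the unpaired fit (adjusted p = 0.543) or with an estimated correlation (adjusted p = 0.461). It was also lost after quantile normalization (0.0610) and without pair 1, 2, 3 or 4 (0.105 to 0.160). The other 6 had a mean log2 level below 4. All 7 summed to 41.1 to 73.3 in the controls and 40.1 to 60.2 with the shRNA, lower in 5 of 5 pairs. The part of these markers and of the myeloid sum in the Cdkn1a and Rbl1 changes was not tested.

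**Figure D5:**
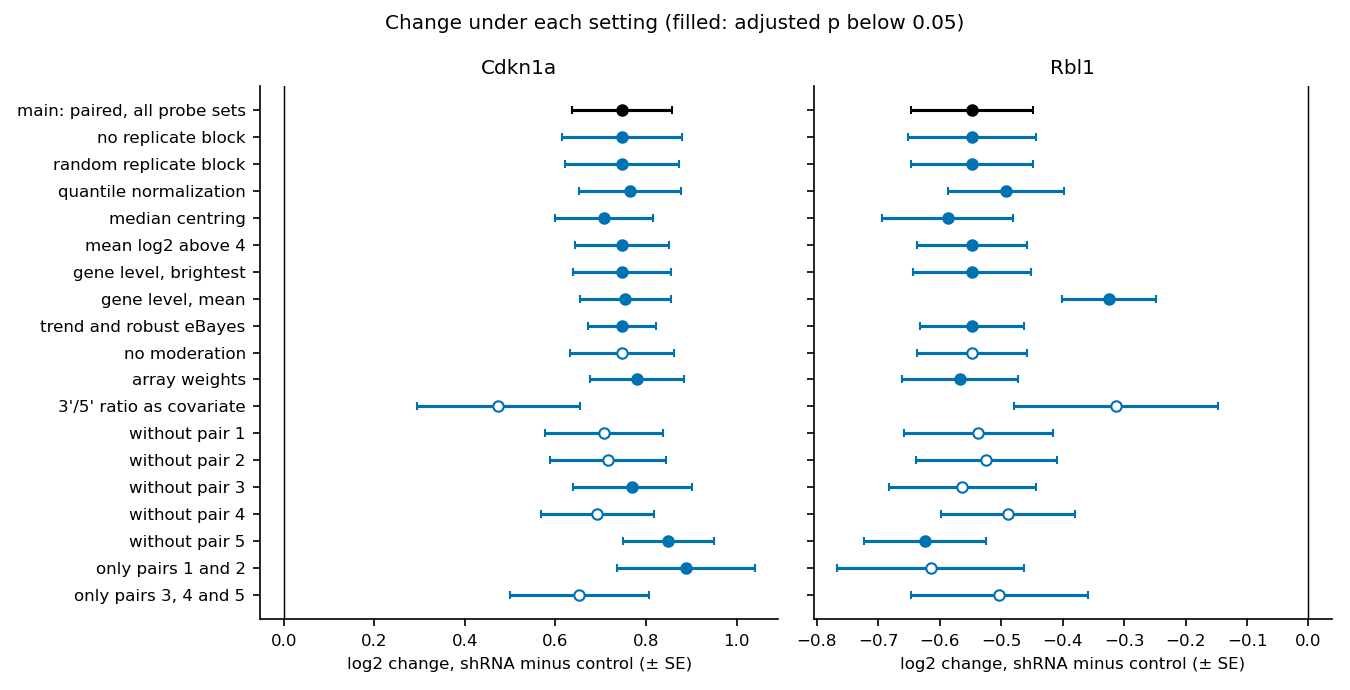
The log2 change (± SE) of the brightest Cdkn1a and Rbl1 probe sets under the setting used and 18 alternatives, filled where the adjusted p was under 0.05. The direction holds in all of them, with the smallest Cdkn1a change (0.47) and Rbl1 change (-0.31) when the 3 prime to 5 prime ratio is a covariate.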

How the data were processed

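The authors deposited 1 table of probe set intensities made with RMA, per the submitters' processing notes; version and settings were not given in the sources used here. The values show a linear scale, so they were log2-transformed with no pseudocount. Of 45101 probe sets, 64 Affymetrix controls were left out, and 34945 of the rest had 1 symbol. Changes were fitted with limma (version 3.58.1, R 4.3.3) by lmFit and eBayes with the pair as a fixed block, over all probe sets, two-sided, Benjamini-Hochberg adjusted. The pairing comes from the labels, and deviations of same-numbered samples correlated at 0.310 to 0.600 over 11215 probe sets. The fit was tested on simulated data. With 100 bright probe sets changed by 0.5 and 100 by 1 on the log2 scale, it recovered 25 and 84, with 3 false calls among 45037. Dim probe sets were given no change, and the noise was drawn separately for each probe set. These rates therefore do not extend to dim members or to a shift that many probe sets share. Named were all members, Meis1, up to 3 called genes per list with the largest change, 10 fixed partners, the 3 genes most like each called probe set, and bright markers. The members and lists were chosen with earlier results of these data known. Trp53, one of the fixed partners, was not analysed here. Alternatives changed the block, normalization, filter, gene-level summary, moderation, array weights, an RNA quality covariate and the pairs used. RefSeq promoter windows (GRCm38.p6) were matched by symbol for 8 of 10 members. The number of arrays limits the precision.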

Additional observations from a re-analysis of the deposited data

Results flagged for a closer look

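In 5 of 36 groups of 5 arrays, a group being 1 probe set in 1 condition, 1 array lay apart from the other 4 by Dixon's test. Chance gives about 1 in 20. Cdkn1a in shRNA 5 was low in both probe sets, at 1708 against 2612 to 2795 in the other shRNA arrays (1424638_at) and at 87.67 against 140.2 to 154.5 (1421679_a_at). Without pair 5 the change of 1424638_at was 0.85 on the log2 scale, against 0.75 with it. The other 3 were in dim probe sets. Cdkn1b 1419497_at read 4.62 in control 4 against 6.97 to 7.91, and 9.50 in shRNA 5 against 5.54 to 6.24. Rb1 1444400_at read 7.58 in control 4 against 4.33 to 4.72.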

How the results depend on the processing

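The changes of the brightest probe set of each member and of Meis1, and of the second called probe sets of Cdkn1a and Rbl1, were recomputed under 18 alternatives. Of these 226 values, 186 kept their direction and side of the threshold and 31 kept their direction but no longer passed. The other 9 changed sign, none of them past the threshold in either setting. All 31 that no longer passed were of Cdkn1a, Rbl1 or Meis1. The brightest probe sets of the other 8 members had no call to lose, and most of their values are among the 186. Fitted beside the 3 prime to 5 prime ratio, Cdkn2a was at 0.016 and Cdkn2d at 0.11. Without 1 pair Cdkn2d ran from -0.26 (without pair 3) to 0.0089 (without pair 1), and it was at 0.13 in pairs 3 to 5. Rbl2 was at 0.041 after quantile normalization, 0.017 with array weights and 0.11 in pairs 3 to 5. Without 1 pair it ran from -0.095 (without pair 4) to 0.099 (without pair 2), with 0.0086 without pair 5.

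The count of 1116 probe sets past the threshold was 1956 among those with a mean log2 level above 4, 739 genes by brightest probe set, 2309 with trend and robust eBayes, 33 without moderation, 0 with the ratio as a covariate (limma; 2504 at an unadjusted p under 0.05), 631 in pairs 1 and 2 and 88 in pairs 3 to 5. Without 1 pair it ran from 359 (without pair 4) to 1674 (without pair 5), with 493, 431 and 549 without pairs 1, 2 and 3. The 4 called of 17 member probe sets were 2 of 10 genes at gene level, by brightest or by mean. By limma 0 were called without moderation, with the covariate and in pairs 3 to 5, with 6, 3 and 6 at an unadjusted p under 0.05. Without 1 pair the number ran from 0 (without pair 1, 2 or 4, with 8, 7 and 5 at an unadjusted p under 0.05) to 4 (without pair 5), and was 2 without pair 3. With no replicate block, in place of the pairing, 816 probe sets and 3 member probe sets passed, with Rbl1 1425166_at lost (adjusted p = 0.0568). After quantile normalization that probe set was lost too (0.0522). The 5 called E2F targets were 11 among genes above a mean log2 of 4, 17 with trend and robust eBayes, 0 without moderation and with the ratio as a covariate (limma; 17 and 4 at an unadjusted p under 0.05), 2 in pairs 1 and 2, 1 in pairs 3 to 5, and 3 (without pair 1 or 3) to 6 (without pair 5) with 1 pair left out. The 6 called p53 arm genes were 1 without moderation, 2 in pairs 1 and 2, 1 in pairs 3 to 5, and 1 (without pair 4) to 6 (without pair 5) with 1 pair left out. Dim probe sets limit what Cdkn1c, Cdkn2a and Cdkn2b can show, and the called Rbl1 1425166_at is dim too.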
